A study of Mus musculus with 24 samples.

Results

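Sfpq, Nono and Pspc1 encode the 3 mouse proteins of one RNA-binding family that is found in paraspeckles. They are 3 of 27598 gene names on the array and were read by the 5 probes that the scanner tables assign to them, of 41174 probes in all. Sfpq and Nono each had 2 probes and Pspc1 had 1, and every probe was followed singly. Sfpq was chosen by its measured signal, which was lower in differentiation medium in the untransfected line, so its differences between the media and between the lines within them are described here without a test. Nono and Pspc1 were taken as its family partners. All 5 probes were marked as well above background in the scanner tables for all 24 samples. They passed the filter on dim probes, which 24355 probes passed in all, and none of their values was left out.

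The cells were N1E-115, a neuroblastoma cell line of the mouse that serves the study as a neuronal model, and their RNA was hybridized to 12 Agilent 2-colour arrays on 3 slides. The TO line was transfected with a chimera that has transcobalamin, the carrier protein of cobalamin (vitamin B12), at the N-terminal side of oleosin, a protein that sits in lipid membranes. Per the design text the TO chimera binds cobalamin with high affinity. The OT line was transfected with the chimera that has transcobalamin at the C-terminal side, for which no binding of cobalamin was detected, and WT cells were not transfected. Each line was grown in differentiation medium (d), with 2.5% serum and 1.25% DMSO, and in proliferation medium (p), with 10% serum. This gave 6 groups of 4 samples: TO-d, TO-p, OT-d, OT-p, WT-d and WT-p. The promoter of the constructs and the number of clones behind each transfected line are not stated in the labels. The series title is about the movement of mRNA out of the nucleus in disorders of cobalamin metabolism.

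The share of spots well above background ran from 54.26 to 65.87% over the samples, and no spot was saturated. All 15 sympathoadrenal neuroblastoma markers were well above background in all 24 samples. Of the 6 blood and endothelium markers on the array none was so in all 24, and Ptprc, Itgam and Cdh5 were so in none. Of the other cell types a culture could hold, 4 of 8 glia markers and 3 of 6 fibroblast and smooth muscle markers were well above background throughout. The summed intensity of the glia markers was 1370 to 1636 in TO-d and 1016 to 1194 in TO-p, 1631 to 1873 in OT-d and 969.9 to 1112 in OT-p, and 2543 to 2669 in WT-d and 1162 to 1470 in WT-p. That of the fibroblast and smooth muscle markers was lower in differentiation medium, with 3837 to 4573 in WT-d and 8099 to 8723 in WT-p, and it is mostly Acta2, which averaged log2 11.65 in WT-d and 12.90 in WT-p. Other genes of that list were mixed. Col1a1 averaged log2 8.67 in WT-d and 7.86 in WT-p. It was lower in differentiation medium in TO (8.38 in TO-d, 9.19 in TO-p) and OT (7.35 in OT-d, 7.56 in OT-p). Dcn averaged log2 6.75 in WT-d and 6.36 in WT-p, and Pdgfra averaged log2 6.14 in WT-d and 6.63 in WT-p. The part of these markers in the results below was not tested. In each group 1 pair of samples shares a label number that differs only by the letter b, and whether such a pair is 1 RNA labelled in both dyes is not stated.

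Paraspeckles are nuclear bodies that assemble on the long noncoding RNA Neat1. Sfpq, Nono and Pspc1 pair with each other through a shared core of RNA recognition motifs and a coiled coil, and Sfpq and Nono are needed for the bodies to form. Outside paraspeckles the same proteins act in transcription, splicing, retention of RNA in the nucleus and repair of DNA breaks by end joining. Nono also binds Per proteins of the circadian clock, and Sfpq is known in neurons for its part in the transport of mRNA along axons.

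The bases just before the transcript start of the 3 genes are shown because their main probes were all lower in differentiation medium. They come from RefSeq on the GRCm38.p6 build, cover 250 bases before the start and read 5′ to 3′ on the strand of the gene. Capitals mark matches on either strand to CCAAT (the CCAAT box), GGGCGG (the GC box), CACGTG (the E-box) and CCGGAAG (an ETS motif). They also mark matches to a GC-rich NRF1 motif. The windows are chr4:127021051-127021300 on the + strand for Sfpq, chrX:101429401-101429650 on the + strand for Nono and chr14:56778319-56778568 on the - strand for Pspc1. The gene records of Sfpq and Nono begin further upstream than the transcript starts used for these windows, so an alternative transcript can cross them.
Sfpq: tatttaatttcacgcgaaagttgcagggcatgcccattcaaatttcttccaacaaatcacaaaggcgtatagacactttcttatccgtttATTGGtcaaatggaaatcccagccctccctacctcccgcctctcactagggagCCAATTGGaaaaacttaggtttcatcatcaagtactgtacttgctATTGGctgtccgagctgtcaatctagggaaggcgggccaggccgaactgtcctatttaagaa
Nono: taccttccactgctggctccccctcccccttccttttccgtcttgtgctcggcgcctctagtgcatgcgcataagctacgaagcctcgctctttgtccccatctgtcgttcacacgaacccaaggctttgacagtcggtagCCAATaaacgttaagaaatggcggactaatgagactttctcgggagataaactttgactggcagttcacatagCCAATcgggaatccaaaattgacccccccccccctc
Pspc1: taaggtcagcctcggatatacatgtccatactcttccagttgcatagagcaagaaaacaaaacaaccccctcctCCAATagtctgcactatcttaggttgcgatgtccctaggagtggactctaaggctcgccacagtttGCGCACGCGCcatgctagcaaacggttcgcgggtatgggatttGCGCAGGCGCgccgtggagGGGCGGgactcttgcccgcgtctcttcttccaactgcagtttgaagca

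The CCAAT box was the motif found before all 3 genes. Sfpq held 4 matches, which began 160, 107, 104 and 62 bases before the start, and those at 107 and 104 overlap on opposite strands. Nono held 2 matches at 109 and 36 bases, and Pspc1 held 1 at 176 bases. Among 32841 windows of the same length before RefSeq starts, 33.9% held at least 1 CCAAT match. Pspc1 also held 2 NRF1 matches, at 110 and 67 bases, against 3.74% of windows with any, and 1 GC box at 48 bases, against 32.7%. The GC box and NRF1 motif had no match before Sfpq or Nono. The E-box (6.02% of windows) and the ETS motif (6.91%) had no match before any of the 3. A match is a run of letters in this window and says nothing about binding.

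The main Sfpq probe (A_52_P292528, designed on NM_023603) lies on chromosome 4 at 126532341 to 126532400 of the mm8 build, on the + strand. Levels throughout are normalized log2 intensities, so a difference of 1 is a doubling of signal, and they are given in the order of replicates 1 to 4. Sfpq read 12.14, 12.09, 12.26 and 12.05 in TO-d, against 12.67, 12.32, 12.39 and 12.81 in TO-p. It read 12.66, 12.33, 12.11 and 12.23 in OT-d, against 13.68, 13.64, 13.37 and 13.46 in OT-p. It read 9.32, 10.35, 10.06 and 9.49 in WT-d, against 13.18, 12.55, 13.27 and 12.80 in WT-p. In all 3 lines every d sample was below every p sample. The WT-d samples were also below every sample of the other groups, and they spread more widely than any other group. For comparison, 51.1% of all probes tested were called between the media in TO, 67.3% in OT and 65.4% in WT.

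Averaged over samples, Sfpq was 9.81 ± 0.48 in WT-d and 12.95 ± 0.34 in WT-p (SD, n = 4 each). The fitted difference, which takes account of dye and of samples sharing an array, was log2 -3.12 in WT, an 8.71-fold lower signal. It was log2 -1.36 in OT, 2.56-fold lower, and log2 -0.30 in TO, 1.23-fold lower. The statement by which Sfpq was chosen, a lower level in WT alone, therefore does not hold as worded. The difference was largest in WT, OT had a clear one of the same sign, and TO had a small one. The raw signal of the probe was 329.8 to 1303 in WT-d and 5978 to 15220 in WT-p, over a local background of at most 62.

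Within slides the Sfpq difference in WT was log2 -3.41 on slide 1 (3 WT-d and 2 WT-p samples) and log2 -2.20 on slide 3 (1 sample each). In OT it was log2 -0.87 on slide 2 and log2 -1.38 on slide 3, and in TO log2 -0.54, -0.43 and -0.26 on slides 1, 2 and 3. The sign was the same on every slide that held both media of a line. On slide 3 the WT value came from WT-d replicate 2, the highest of its group, and WT-p replicate 2, the lowest of its group.

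From low to high, the group means of Sfpq ran WT-d 9.81, TO-d 12.14, OT-d 12.33, TO-p 12.55, WT-p 12.95 and OT-p 13.54. WT-d was apart from TO-d, and WT-p from OT-p. The samples of the neighbours between them overlapped, TO-d with OT-d, OT-d with TO-p and TO-p with WT-p. In differentiation medium Sfpq was log2 2.32 higher in TO-d and log2 2.40 higher in OT-d than in WT-d. In proliferation medium Sfpq was lower in TO-p relative to WT-p (log2 -0.50) with overlapping samples, while OT-p was log2 0.63 higher than WT-p without overlap.

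The one difference of Sfpq that its choice did not use was that between the transfected lines over both media. Sfpq was 1.52-fold lower in TO than in OT (log2 -0.60 ± 0.146 SE, limma adjusted p = 0.00126), with TO averaging 12.34 and OT 12.94 over 8 samples each. That call held in every alternative run, with adjusted p between 0.00024 and 0.00769 when single samples were left out. By medium, and without a test, the difference was log2 -1.13 for TO-p against OT-p, with no overlap of samples. For TO-d against OT-d it was log2 -0.07, with overlap. The average over both media thus came mostly from proliferation medium. Of the 5 probes, 4 were called between TO and OT over both media, where 55.0% of all probes tested were called. All 4 were lower in TO on that average. The fifth was the second Sfpq probe (log2 -0.10, 95% interval -0.35 to 0.15, adjusted p = 0.51). The average does not stand for each medium. For Pspc1 the difference was log2 -0.94 for TO-p against OT-p and log2 0.55 for TO-d against OT-d, with opposite signs. Its call over both media was lost with loess alone (limma adjusted p = 0.343). Among the 3 probes of Nono and Pspc1, only the main Nono probe was called lower in TO in both media.

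The second Sfpq probe (A_52_P76426) was designed on the predicted transcript XM_994784 and lies on the same strand of chromosome 4 at 126530215 to 126530274 (mm8), nearer the start of the gene. It gave 9.57, 9.89, 9.78 and 9.31 in TO-d, against 9.65, 9.48, 9.60 and 8.98 in TO-p. It gave 10.43, 9.49, 9.95 and 9.53 in OT-d, against 9.55, 9.63, 9.30 and 9.35 in OT-p. It gave 9.95, 9.36, 9.21 and 9.71 in WT-d, against 9.29, 9.59, 9.06 and 8.77 in WT-p. The media overlapped in every line. Its fitted differences were log2 0.17 in TO, 0.46 in OT and 0.34 in WT, so the 2 probes of Sfpq disagree in sign, and the description of Sfpq above rests on 1 probe. Which transcripts each probe can bind was not analysed here, and the levels of 2 probes cannot be set against each other.

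**Figure D1:**
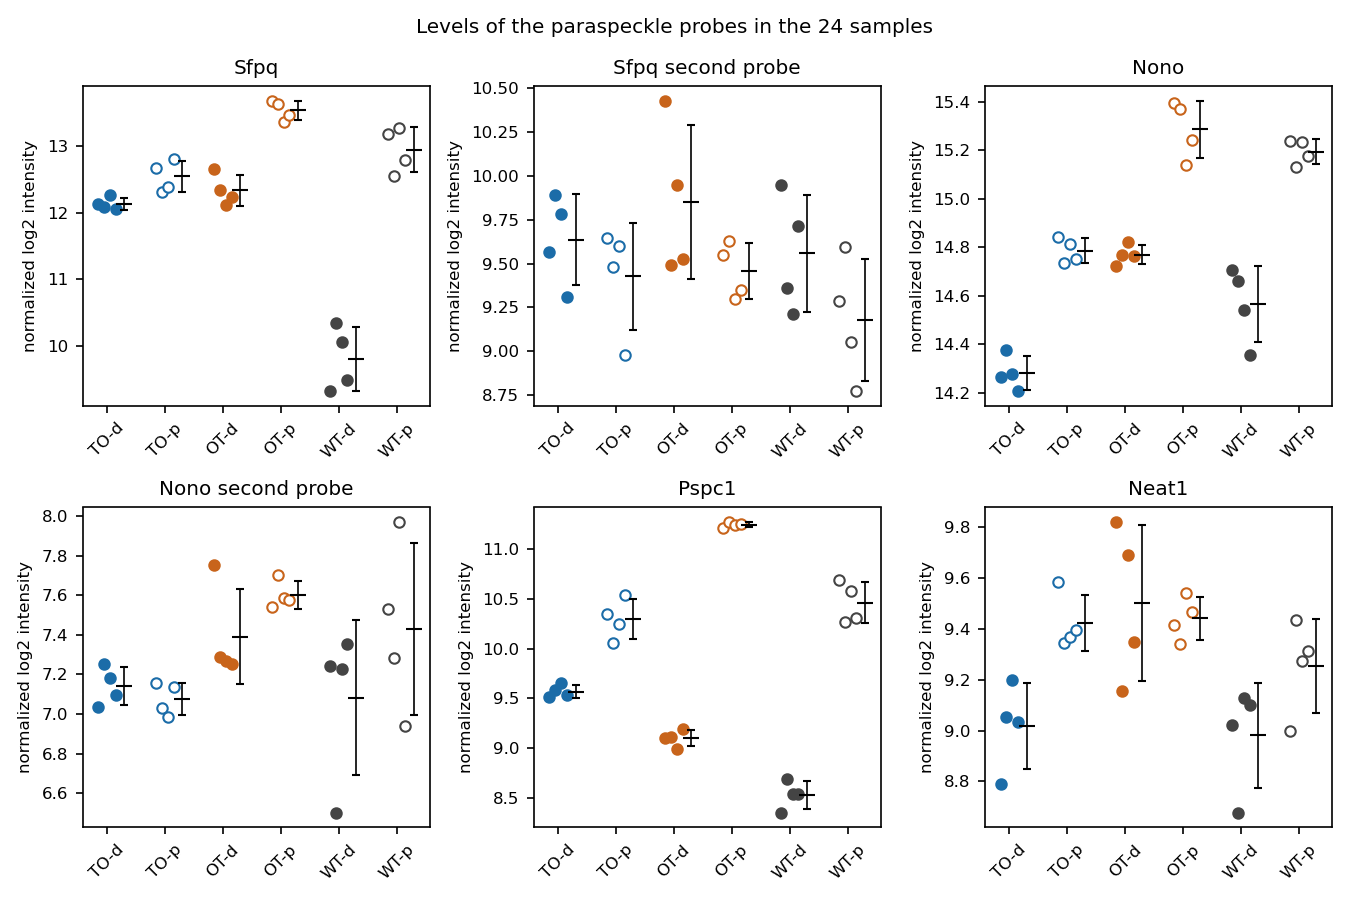
Normalized log2 intensity (y axis, its own scale in each panel) of the 5 probes and of Neat1 in TO-d, TO-p, OT-d, OT-p, WT-d and WT-p (x axis). Each circle is 1 sample, filled for differentiation and open for proliferation medium, and the bars give mean ± SD over 4 samples. The main Sfpq probe has its 4 WT-d samples at 9.32 to 10.35, below all others, while the second Sfpq probe shows no such group.

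Nono was lower in differentiation medium in all 3 lines. Its main probe (A_51_P296292, designed on NM_023144) lies on the X chromosome at 97651141 to 97651200 (mm8, + strand). Nono read 14.27, 14.38, 14.28 and 14.21 in TO-d, against 14.84, 14.74, 14.82 and 14.75 in TO-p. It read 14.72, 14.77, 14.82 and 14.76 in OT-d, against 15.40, 15.37, 15.14 and 15.24 in OT-p. It read 14.71, 14.66, 14.54 and 14.36 in WT-d, against 15.24, 15.13, 15.23 and 15.18 in WT-p. The media did not overlap in any line, and TO samples were lowest in each medium apart from 1 WT-d sample at 14.36.

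Nono fell in differentiation medium by 0.51 ± 0.0668 on the log2 scale in TO (SE, limma adjusted p = 8.94e-07), a 1.43-fold lower signal. It fell by 0.56 ± 0.0635 in OT (adjusted p = 4.28e-08) and fell by 0.69 ± 0.071 in WT (adjusted p = 1.35e-08), which are 1.48-fold and 1.61-fold lower signals. None of the lines differed from another in this response by the limma test. The response of TO less that of WT was log2 0.18 (95% interval -0.03 to 0.38, adjusted p = 0.161). That of OT less that of WT was log2 0.13 (-0.06 to 0.32, adjusted p = 0.295), and that of TO less that of OT was log2 0.05 (-0.15 to 0.25, adjusted p = 0.717). With loess alone, without normalization between arrays, the first of these was log2 0.46 and was called (adjusted p = 0.00858). With the Feature Extraction signals the second was log2 -0.002 (adjusted p = 0.992). Within slides the Nono difference between the media was log2 -0.58, -0.45 and -0.53 in TO on slides 1 to 3, log2 -0.39 and -0.52 in OT on slides 2 and 3, and log2 -0.67 and -0.47 in WT on slides 1 and 3.

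Nono was also lowest in the TO line. Over both media it was 1.26-fold lower in TO than in WT (log2 -0.33 ± 0.0493 SE, adjusted p = 9.26e-06) and 1.41-fold lower in TO than in OT (log2 -0.49 ± 0.049, adjusted p = 1.44e-08). It was 1.12-fold higher in OT than in WT (log2 0.16 ± 0.0444, adjusted p = 0.00403). In proliferation medium Nono was lower in TO-p relative to both WT-p (log2 -0.42, adjusted p = 2.21e-05) and OT-p (log2 -0.52, adjusted p = 6.8e-07), with no overlap of samples. OT-p and WT-p were not called apart (log2 0.09, 95% interval -0.03 to 0.22, adjusted p = 0.217).

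In differentiation medium Nono was lower in TO-d relative to both OT-d (log2 -0.47, adjusted p = 1.53e-05) and WT-d (log2 -0.24, adjusted p = 0.0112). It was higher in OT-d relative to WT-d (log2 0.22, adjusted p = 0.00786). The TO-d against WT-d call was lost with the deposited series table (adjusted p = 0.197), with loess alone (0.699), without TO-d replicate 1 (0.0507) and without the samples marked b (0.0991). The OT-d against WT-d call was lost with the Feature Extraction signals (0.154), without WT-d replicate 4 (log2 0.15, 0.0789) or OT-d replicate 3 (0.0593), and with the samples marked b left out (0.059) or shared label numbers averaged (0.0728).

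From low to high, the group means of Nono ran TO-d 14.28, WT-d 14.57, OT-d 14.77, TO-p 14.79, WT-p 15.19 and OT-p 15.29. TO-d and WT-d overlapped by 1 sample, and OT-d with TO-p and WT-p with OT-p overlapped more fully. Nono in TO-p was thus at the level of OT-d.

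The second Nono probe (A_52_P61893, designed on the cDNA AK013444) lies on the same strand at 97644637 to 97644696 of the X chromosome (mm8). It was dim, at raw signals of 67.21 to 284.3, and 6 of its 24 local backgrounds carried an outlier mark and were replaced. In WT-p replicate 3, the highest WT-p sample, the raw signal was 177.5 and the local background as scanned was 299.5. It gave 7.03 to 7.25 in TO-d and 6.98 to 7.16 in TO-p, 7.25 to 7.75 in OT-d and 7.54 to 7.70 in OT-p, and 6.50 to 7.35 in WT-d and 6.94 to 7.97 in WT-p. The media overlapped in every line, and its differences between the media were log2 0.18 in TO (adjusted p = 0.391), log2 -0.17 in OT (adjusted p = 0.365) and log2 -0.37 in WT (adjusted p = 0.0722). The difference in WT was called without WT-p replicate 4 (log2 -0.53, adjusted p = 0.00793), WT-d replicate 4 (log2 -0.53, adjusted p = 0.021) or OT-d replicate 1 (adjusted p = 0.0461) and with loess alone (adjusted p = 0.0293), and was as small as log2 -0.11 with 1 sample left out.

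Between the lines the second Nono probe went the way of the main probe in some comparisons and not in others. TO was 1.33-fold below OT over both media (log2 -0.42, adjusted p = 0.00576), and TO-p was below OT-p (log2 -0.59, adjusted p = 0.00398). TO and WT were not called apart over both media (log2 -0.15, adjusted p = 0.321), and TO-d relative to WT-d was log2 0.12 (adjusted p = 0.629), where the main probe was lower. OT was 1.20-fold above WT over both media (log2 0.26, adjusted p = 0.0461). That call was lost without any 1 of 15 samples, with adjusted p up to 0.363 without WT-d replicate 2. TO-p was called below WT-p (log2 -0.43, adjusted p = 0.04). That call was lost without any 1 of 8 samples (log2 -0.19, adjusted p = 0.455, without WT-p replicate 3), without the filter on dim probes (adjusted p = 0.0613), without the dye term (0.0692), with slide as a covariate (0.0568), with the Feature Extraction signals (0.158) and with the samples marked b left out (0.0833) or shared label numbers averaged (0.416).

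Pspc1 fell in differentiation medium in all 3 lines, and by less in TO than in OT or WT. Its probe (A_51_P330133, designed on NM_025682) lies on chromosome 14 at 55677143 to 55677202 (mm8, - strand). Pspc1 read 9.51, 9.58, 9.65 and 9.53 in TO-d, against 10.35, 10.06, 10.24 and 10.54 in TO-p. It read 9.10, 9.11, 9.00 and 9.19 in OT-d, against 11.21, 11.27, 11.24 and 11.25 in OT-p. It read 8.35, 8.69, 8.54 and 8.54 in WT-d, against 10.69, 10.27, 10.58 and 10.30 in WT-p. The media did not overlap in any line. OT had the widest gap, from the highest group of all in proliferation medium.

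Pspc1 fell by 0.67 ± 0.0942 on the log2 scale in TO (SE, limma adjusted p = 2.34e-06), a 1.59-fold lower signal. It fell by 2.17 ± 0.0895 in OT (adjusted p = 1.49e-15), 4.50-fold, and fell by 1.89 ± 0.1 in WT (adjusted p = 1.92e-13), 3.71-fold. Of all probes tested, 7.89% were at least as low in TO, 1.53% in OT and 1.75% in WT. The response of TO was smaller than that of OT by log2 1.497 ± 0.136 (adjusted p = 3.91e-08) and smaller than that of WT by log2 1.22 ± 0.139 (adjusted p = 1.97e-06). OT and WT were not called apart in their response (log2 -0.28, 95% interval -0.54 to -0.01, adjusted p = 0.0996), although the call was made without WT-p replicate 1 (log2 -0.39, adjusted p = 0.0161). Within slides the Pspc1 difference was log2 -0.84, -0.78 and -0.52 in TO on slides 1 to 3, log2 -2.14 and -2.17 in OT on slides 2 and 3, and log2 -1.96 and -1.58 in WT on slides 1 and 3.

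The lines differed in Pspc1 in both media. In differentiation medium TO-d exceeded WT-d by 2.06-fold (log2 1.04, adjusted p = 7.84e-08) and OT-d by 1.47-fold (log2 0.55, adjusted p = 0.000128), and OT-d exceeded WT-d by 1.40-fold (log2 0.49, adjusted p = 0.000155). In proliferation medium OT-p exceeded WT-p by 1.70-fold (log2 0.77, adjusted p = 2.04e-07), while TO-p was 1.92-fold below OT-p (log2 -0.94, adjusted p = 1.63e-08). TO-p and WT-p were not called apart (log2 -0.18, 95% interval -0.36 to 0.01, adjusted p = 0.141), except without TO-p replicate 4 (adjusted p = 0.04). The order of TO and OT was thus opposite in the 2 media. Every slide that held both groups of a called pair gave the pooled sign for Nono and for Pspc1.

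Over both media Pspc1 was log2 0.43 higher in TO than in WT (adjusted p = 2.68e-05) and log2 0.63 higher in OT than in WT (adjusted p = 1.83e-08). It was lower in TO than in OT (log2 -0.20, adjusted p = 0.0198). The last call was lost without OT-d replicate 1 (adjusted p = 0.0578), without TO-p replicate 3 (0.0566) and with loess alone (0.343). From low to high, the group means of Pspc1 ran WT-d 8.53, OT-d 9.10, TO-d 9.57, TO-p 10.30, WT-p 10.46 and OT-p 11.24, and TO-p with WT-p was the only pair of neighbours whose samples overlapped.

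**Figure D2:**
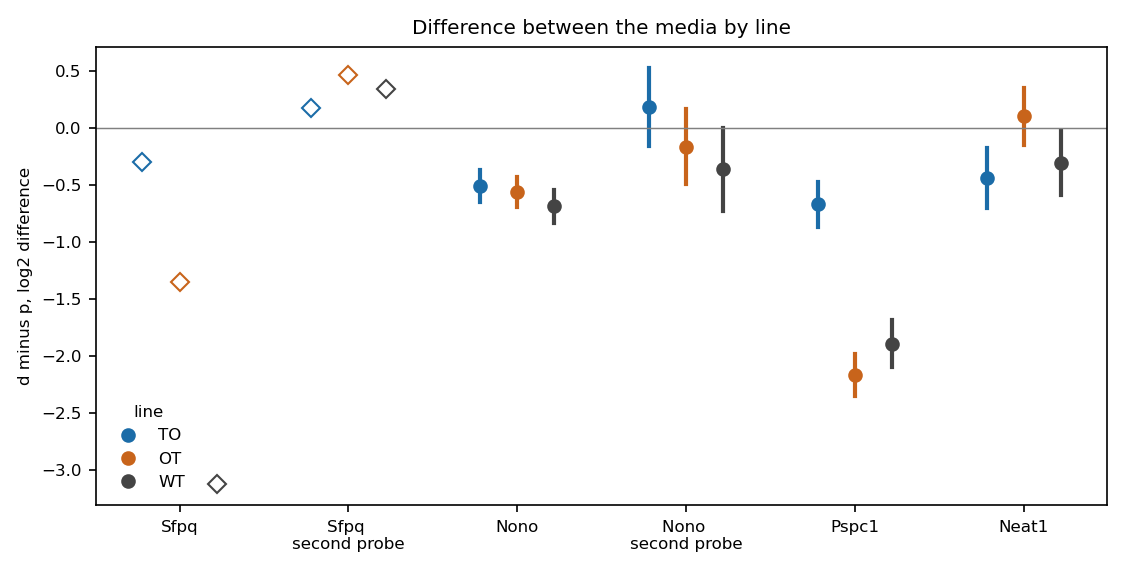
Fitted log2 difference between differentiation and proliferation medium (y axis) for each probe and for Neat1 (x axis), in TO, OT and WT from left to right. Lines are 95% intervals of the limma fit, and the open diamonds of Sfpq have none because its differences were not tested. Pspc1 is at -0.67 in TO against -2.17 in OT and -1.89 in WT, and the 3 values of Nono lie between -0.51 and -0.69.

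Set beside the whole array, many probes moved in these comparisons, so that a call by itself says little about the family. Of the 3 probes of Nono and Pspc1, 2 were called lower in differentiation medium in each line, where 51.1% of all probes tested were called in TO, 67.3% in OT and 65.4% in WT. For the response of one line against another, 1 of the 3 probes was called for TO against WT (36.2% of all probes), 0 for OT against WT (33.7%) and 1 for TO against OT (38.5%). The 0 is the limma count after adjustment, and 1 probe, Pspc1, had an unadjusted p under 0.05 there. Over both media 2 of the 3 were called for TO against WT (44.4%) and all 3 for OT against WT (57.2%). In proliferation medium 2 of the 3, one of them the second Nono probe, were called for TO-p against WT-p (33.0%), 1 for OT-p against WT-p (43.4%) and 3 for TO-p against OT-p (55.8%). In differentiation medium 2 of the 3 were called for TO-d against WT-d (45.2%), for OT-d against WT-d (51.1%) and for TO-d against OT-d (36.9%).

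Some arrays held both groups of a comparison in 1 hybridization. On the array that held TO-d replicate 4 and TO-p replicate 2, the TO-d sample was log2 -0.26 for Sfpq, -0.53 for Nono and -0.52 for Pspc1 relative to TO-p. On the array with OT-d replicate 4 and OT-p replicate 2, the OT-d sample was log2 -1.41 for Sfpq, -0.61 for Nono and -2.08 for Pspc1 relative to OT-p. On the array with OT-d replicate 3 and WT-d replicate 2, OT-d was log2 1.76 higher for Sfpq, 0.16 higher for Nono and 0.31 higher for Pspc1. On the array with TO-p replicate 1 and WT-p replicate 3, TO-p was log2 -0.59 for Sfpq, -0.39 for Nono and -0.23 for Pspc1 relative to WT-p. The other pair of arrays of this kind held OT-p and WT-p. On the array with OT-p replicate 3 and WT-p replicate 1, OT-p was log2 0.19 for Sfpq, -0.096 for Nono and 0.56 for Pspc1 relative to WT-p, and on the array with OT-p replicate 4 and WT-p replicate 2 it was log2 0.91, 0.11 and 0.98. Apart from Nono on the first of these, where the fitted difference of OT-p and WT-p was not called, the main probes had the signs of their fitted differences. These single arrays have no replicate of their own. The second Sfpq probe had its fitted sign on some of these arrays and the opposite sign on others. On the array with OT-d replicate 4 and OT-p replicate 2 it was log2 -0.10 in OT-d relative to OT-p, against a fitted 0.46.

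Across the 24 samples the 3 main probes kept partly the same order. OT-p was highest for all 3 and TO-p and WT-p lay next, but WT-d was lowest for Sfpq and Pspc1 while TO-d was lowest for Nono. Since the samples fall into groups, no correlation between the 3 main probes over all samples is given. In differentiation medium Sfpq hardly separated TO-d from OT-d (12.14 and 12.33), where Nono was lower in TO-d (14.28 and 14.77) and Pspc1 higher in TO-d (9.57 and 9.10).

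**Figure D3:**
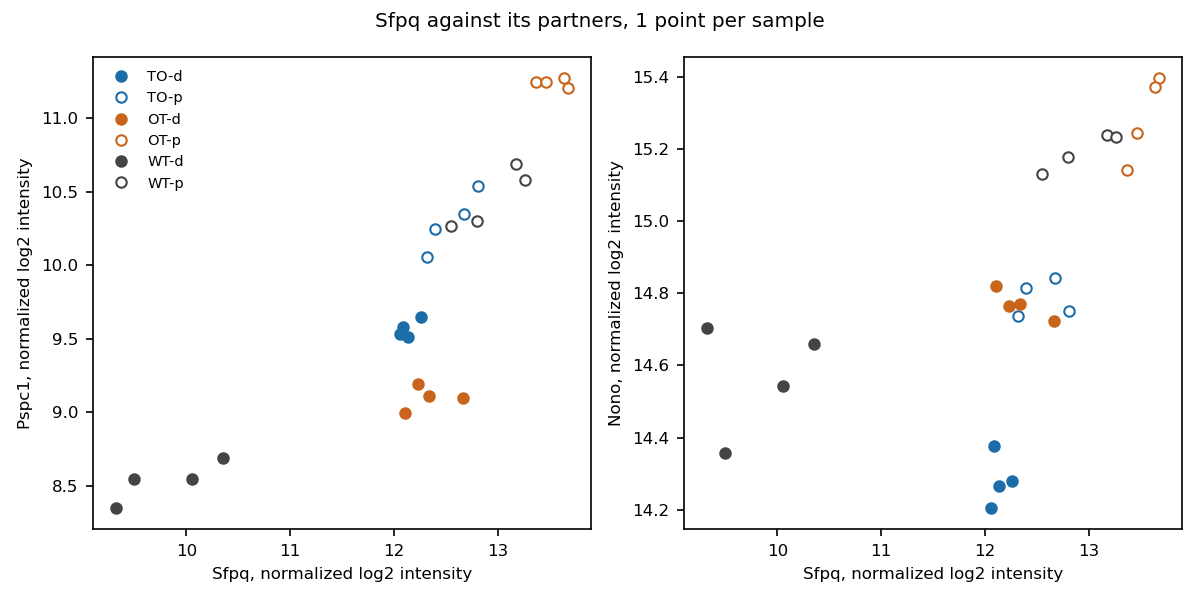
Pspc1 (left, y axis) and Nono (right, y axis) against Sfpq (x axis), each in normalized log2 intensity, with 1 point per sample, filled for differentiation and open for proliferation medium. Samples form group clusters: WT-d lies at 9.32 to 10.35 for Sfpq and lowest for Pspc1, whereas TO-d is lowest for Nono at 14.21 to 14.38.

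Neat1, the RNA on which paraspeckles assemble, was read by 1 probe on chromosome 19 at 5842564 to 5842623 (mm8), listed in the scanner files under an older clone name. It read 8.79, 9.05, 9.20 and 9.03 in TO-d, against 9.58, 9.34, 9.37 and 9.39 in TO-p. It read 9.82, 9.15, 9.69 and 9.35 in OT-d, against 9.42, 9.34, 9.54 and 9.47 in OT-p. It read 9.02, 8.68, 9.13 and 9.10 in WT-d, against 9.00, 9.43, 9.27 and 9.31 in WT-p. The media were apart in TO and overlapped in OT and WT.

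Neat1 fell by 0.44 ± 0.127 on the log2 scale in TO (SE, limma adjusted p = 0.00556) and fell by 0.31 ± 0.135 in WT (adjusted p = 0.0479), and was not called in OT (log2 0.10, adjusted p = 0.473). The response of TO less that of OT was log2 -0.54 (adjusted p = 0.0226), while those of TO less WT (log2 -0.13, adjusted p = 0.615) and OT less WT (log2 0.41, adjusted p = 0.0701) were not called. In differentiation medium Neat1 in OT-d exceeded WT-d by 1.53-fold (log2 0.62, adjusted p = 0.000315), and TO-d was 1.48-fold below OT-d (log2 -0.56, adjusted p = 0.00195). The WT call was lost without any 1 of 13 samples, with log2 -0.18 (adjusted p = 0.284) without WT-d replicate 2, and also with quantile normalization (adjusted p = 0.0648), with the Feature Extraction signals (0.0608) and without the filter on dim probes (0.0719). The TO less OT response was lost without any 1 of 4 samples, with adjusted p up to 0.0746, while OT less WT was called without any 1 of 3, down to adjusted p = 0.0236. Neat1 was thus not called in OT, where Pspc1 had its widest difference between the media.

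Malat1, the nuclear RNA encoded next to Neat1, went the other way. Its 4 probes, which the files name Ramp2 but describe as the nuclear enriched abundant transcript 2, rose in all 3 lines. The rise was log2 0.91 to 1.72 in TO, 1.85 to 3.12 in OT and 1.64 to 2.73 in WT, and the largest adjusted p of the 12 tests was 0.00046. At the brightest of the 4, Malat1 averaged 12.43 ± 0.27 in TO-d and 10.64 ± 0.58 in TO-p, 13.36 ± 0.53 in OT-d and 10.43 ± 0.33 in OT-p, and 13.26 ± 0.69 in WT-d and 10.51 ± 0.60 in WT-p (SD, n = 4 each).

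Of the other paraspeckle components, a list of 46 names covers 44 genes on the array, and 43 of these were tested. In TO, 5 rose and 21 fell, where 26.4% of all genes tested rose and 25.8% fell. In OT, 12 rose and 25 fell, where 36.4% of all genes rose and 31.0% fell. In WT, 12 rose and 20 fell, where 35.8% of all genes rose and 30.8% fell. The median difference of the list was log2 -0.24 in TO, -0.40 in OT and -0.26 in WT, beside 0.00, 0.04 and 0.06 over all genes. With loess alone the counts were 7 higher and 14 lower in TO and 8 higher and 26 lower in WT.

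Of the components that fell, Rbm3 changed most in TO and WT. Rbm3, a cold-inducible RNA-binding protein, fell in all 3 lines (log2 -2.53 in TO, -2.00 in OT and -3.63 in WT). It averaged 10.78 in TO-d and 13.35 in TO-p, 12.51 in OT-d and 14.39 in OT-p, and 10.83 in WT-d and 14.40 in WT-p. Srsf10, a splicing regulator of the SR family, fell in OT (log2 -2.15) and in WT (log2 -1.92). In TO it was lower too, averaging 10.02 in TO-d and 10.98 in TO-p. In TO the next largest falls were those of Dazap1 (log2 -1.30), the splicing factor Hnrnpa1 (log2 -1.11) and Nudt21, a subunit of the cleavage factor for 3′ ends (log2 -0.94). In OT they were those of Taf15 (log2 -1.27), an RNA-binding protein, and Dazap1 (log2 -1.16). In WT they were those of Rbm14 (log2 -1.46), a protein needed for paraspeckles, and Tardbp (log2 -1.42), which encodes TDP-43. Rbm14 also averaged lower in TO-d (12.46) than in TO-p (13.25) and in OT-d (12.81) than in OT-p (13.85). So did Tardbp, with 11.32 in TO-d and 12.27 in TO-p, and 11.65 in OT-d and 12.78 in OT-p. The largest limma adjusted p of the fitted falls given here was 4.83e-07.

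Some components of the same list rose. Celf6, a splicing regulator of neurons, rose by log2 0.85 in TO, 2.31 in OT and 1.81 in WT. Bcl6, a transcriptional repressor, rose by log2 0.64 in TO and 1.53 in WT, and Enox1 rose by log2 1.02 and Mex3a by log2 0.35 in TO (adjusted p = 0.0133 for Mex3a, and 0.0769 without TO-d replicate 1 or 0.0616 without TO-d replicate 4). Zc3h6 rose by log2 2.28 in OT and 1.25 in WT (adjusted p = 0.000287 in WT). Cirbp, a cold-inducible relative of Rbm3, rose by log2 1.37 in OT, and Cpsf6, the partner of Nudt21, by log2 1.09 there. Akap8l rose by log2 0.94 in WT. The 2 cold-inducible proteins of the list thus moved in opposite directions in OT.

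**Figure D4:**
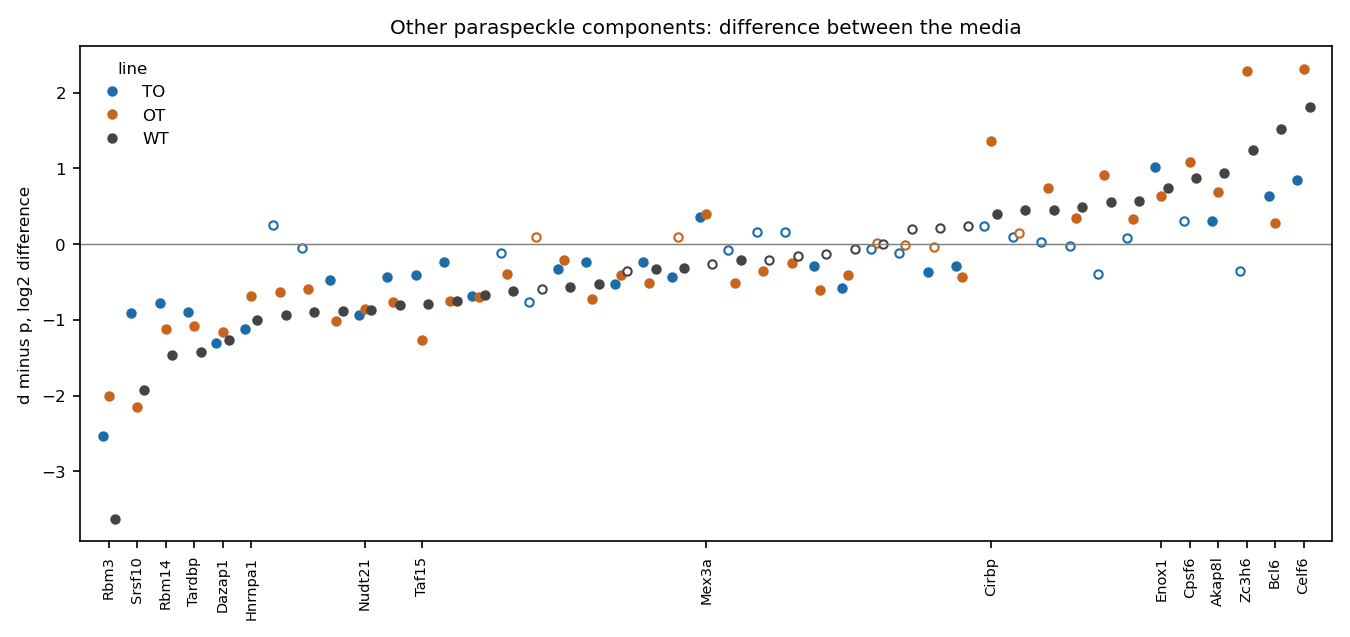
Fitted log2 difference between differentiation and proliferation medium (y axis) of the 43 other paraspeckle components tested (x axis, ordered by the value in WT, with names for those described in the text), in TO, OT and WT. Filled points passed an adjusted p of 0.05 and open points did not. Rbm3 is lowest in WT at -3.63 and Celf6 is highest in OT at 2.31.

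End joining of DNA breaks, in which Sfpq and Nono take part, was followed by 10 genes, all tested. In TO 2 rose and 5 fell, in OT 2 rose and 5 fell, and in WT 1 rose and 6 fell, where 26.4, 36.4 and 35.8% of all genes tested rose and 25.8, 31.0 and 30.8% fell. The list medians were log2 -0.29, -0.19 and -0.36, beside 0.00, 0.04 and 0.06 over all genes. Nhej1, which aligns broken ends, fell in TO (log2 -1.06), OT (log2 -1.79) and WT (log2 -1.84). Xrcc5, the larger Ku subunit, fell in TO (log2 -1.16), OT (log2 -0.91) and WT (log2 -1.15). The next largest falls were Xrcc6, the smaller Ku subunit (log2 -0.62), and the polymerase Poll (log2 -0.54) in TO, the nuclease Dclre1c (log2 -0.64) and Xrcc6 (log2 -0.27) in OT, and Poll (log2 -0.46) and Dclre1c (log2 -0.43) in WT. Trp53bp1, which steers breaks to end joining, rose by log2 0.39 in TO, 0.45 in OT and 0.29 in WT (log2 0.22, adjusted p = 0.0604, without WT-d replicate 4, and adjusted p = 0.782 with loess alone). Lig4, the ligase of the pathway, rose by log2 0.62 in TO, and the polymerase Polm by log2 0.36 in OT, a call lost with the samples marked b left out (adjusted p = 0.123) or shared label numbers averaged (0.107).

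Of 17 circadian clock genes, the pathway to which Nono is tied through Per proteins, 16 were tested. In TO 4 rose and 0 fell, in OT 9 rose and 4 fell, and in WT 9 rose and 0 fell, where 26.4, 36.4 and 35.8% of all genes tested rose and 25.8, 31.0 and 30.8% fell. The list medians were log2 0.10, 0.42 and 0.56, beside 0.00, 0.04 and 0.06 over all genes. Per1 rose by log2 0.40 in TO, 1.15 in OT and 1.02 in WT, and Cry2, a repressor of the clock, rose by log2 0.48, 0.91 and 1.05. In TO the kinase Csnk1d rose most (log2 0.97), and Nr1d2 rose by log2 0.30. In OT the repressor Bhlhe40 rose most (log2 1.62), followed by Dbp, a clock output factor (log2 1.42). In WT Dbp rose most (log2 1.39), followed by the nuclear receptor Nr1d1 (log2 1.18). In OT Clock (log2 -0.61), Hlf (log2 -0.50), Cry1 (log2 -0.45) and Nr1d2 (log2 -0.24) fell. Of these, 3 lost their call without the samples marked b, Hlf with adjusted p = 0.137, Cry1 with 0.0549 and Nr1d2 with 0.0654, and Hlf (0.163) and Nr1d2 (0.0864) also with shared label numbers averaged.

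Genes of proliferating cells were also lower in differentiation medium, as were the main probes of Sfpq, Nono and Pspc1. All 14 proliferation genes fell in each line, where 25.8% of all genes tested fell in TO, 31.0% in OT and 30.8% in WT. The list medians were log2 -3.35 in TO, -3.68 in OT and -4.26 in WT, beside 0.00, 0.04 and 0.06 over all genes. Mki67, a marker of cycling cells, fell in TO (log2 -5.58), OT (log2 -4.20) and WT (log2 -5.60). Ccnb1, cyclin B1, fell in TO (log2 -5.27), OT (log2 -4.20) and WT (log2 -5.57). Between lines, 7 of the 14 were called with a smaller fall in TO than in WT and 0 with a larger one, where 36.2% of all probes were called in either direction. OT was similar, with 6 called with a smaller fall than in WT and 1 with a larger one, where 33.7% of all probes were called. Between TO and OT, 6 were called with the smaller fall in TO and 4 with the larger, where 38.5% of all probes were called. The part of cell cycling in the values of Sfpq, Nono and Pspc1 was not tested.

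The genes whose levels over the 24 samples were most like each member were taken from 11571 genes with 1 probe each, by Pearson's r. These values describe likeness of pattern over samples that share group and array. For Sfpq they were Nme1, a nucleoside diphosphate kinase (r = 0.975), Ap4s1, a subunit of an adaptor complex (0.970), Cenpt, a centromere protein (0.969), the tyrosine kinase Fer (0.969) and the thioesterase Acot10 (0.968). Each was lowest in WT-d, which follows from choosing them by likeness to Sfpq and is no separate result. Nme1 averaged 11.92 in WT-d and 13.61 in WT-p, against 13.07 in TO-d and 13.37 in TO-p. For Nono they were Ilf2 (0.960), which encodes a subunit of an RNA-binding complex, the histone chaperone Rbbp4 (0.958), the transcription factor Gata2 (0.956), the chromatin protein Psip1 (0.955) and Taf5 of the general transcription machinery (0.955). Gata2 averaged 10.87 in TO-d and 11.70 in TO-p, against 11.70 in WT-d and 12.61 in WT-p. For Pspc1 they were Slc25a13, a mitochondrial carrier (0.991), Mrpl42 of the mitochondrial ribosome (0.983), the mitochondrial enzyme Mecr (0.981) and the chromatin remodeller Baz1a (0.978). Slc25a13 averaged 7.93 in OT-d and 10.12 in OT-p, against 7.49 in WT-d and 9.09 in WT-p. The 3 sets had no gene in common.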

How the data were processed

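Per the file headers, Agilent Feature Extraction (version 10.5.1.1) made the scanner tables, which hold mean signals and local background medians as raw intensity per spot and dye. A deposited series table holds 1 linear intensity per spot and sample, with column medians of 101.97 to 107.69. Each of its columns was closest to the sample's own dye. The table's normalization is not given in the sources used here. The mean intensity as deposited was corrected with normexp (offset 50). Before this, the 1.81% of local backgrounds that carried an outlier mark, the largest of them 525087, were set to the median of that channel, since that spot distorted the correction of its array. The 1639 control spots were removed. Loess within arrays and Aquantile between arrays gave log2 values, so that each log2 level is the deposited intensity after these steps, and 0.294% of values with an outlier mark were left out. Spots were averaged to 41174 probes. A probe was tested if some group had it well above background in each of its 4 samples.

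In R 4.3.3, limma 3.58.1 fitted 6 group means and a dye term, with the array as block (intraspot correlation 0.447) and 17 residual and 5.42 prior degrees of freedom. A call is an adjusted p (Benjamini-Hochberg, over 24355 probes) under 0.05, and gene lists used the brightest probe of each gene. Tests are two-sided. P-values reflect no more than the spread among these samples: the replicates are called biological, with no word on separate cultures, and the number of arrays limits the precision. The fit was checked on simulated data. The members and lists were chosen with earlier results of these data known. Per list and medium comparison at most 4 called genes a direction are named, by size, with Neat1 and Malat1 always read out and, per member, the 5 genes most like it, of which 1 is not reported here. Gene symbols were matched to RefSeq, by accession for 24375 probes. Probe positions are those of the files, on mm8.

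Replicate numbers do not pair samples: deviations of samples with the same number in other groups correlated at -0.292 to 0.304, median -0.033. Those of the 6 pairs that share a label number with and without b correlated at -0.587 to 0.179, median -0.013. The 30 other pairs within a group correlated at -0.689 to 0.388, median -0.467. The main fit counts samples that share a label number as separate samples. Alternatives were other normalizations, filters and covariates, within-slide values, the replicate block, each sample left out, and shared label numbers left out or averaged. Protein and probe sequences were not used here.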

Additional observations from a re-analysis of the deposited data

Results flagged for a closer look

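The response of Pspc1 to the medium differed between lines by an interaction term. It was smaller in TO than in WT by log2 1.22 (limma adjusted p = 1.97e-06) and smaller in TO than in OT by log2 1.497 (adjusted p = 3.91e-08). Every TO-d sample was below every TO-p sample, so the lines differ in size and not in direction.

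In 2 of the 30 groups of 4 values (5 probes in 6 groups) 1 sample stood far from the others, both at the dim second Nono probe. OT-d replicate 1 read 7.75, against 7.25 to 7.29 in the other OT-d samples. WT-d replicate 2 read 6.50, against 7.23 to 7.35 in the other WT-d samples. Chance marks about 1 in 20 such groups.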

How the results depend on the processing

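All called differences between the media for Nono and Pspc1 and the smaller Pspc1 response of TO kept their direction and their call under every fitted alternative. So did the lower Sfpq of TO against OT over both media. The alternatives included the deposited series table, the Feature Extraction signals and slide as a covariate. Loess alone called the Nono response of TO against WT (log2 0.46, adjusted p = 0.00858) and lost Pspc1 of TO against OT over both media (log2 -0.11). The Feature Extraction signals raised the WT median of all probes to 0.13 and loess alone lowered it to -0.11, from 0.02. With single samples left out, Pspc1 of TO against OT over both media ran from -0.25 to -0.17, and the Pspc1 response of OT against WT from -0.39 to -0.16, both across the threshold. Uncalled signs turned for the Nono response of OT against WT with the Feature Extraction signals (-0.002). At the second Nono probe the response of OT against WT ran from -0.138 to 0.336 with single samples left out, turning without WT-d replicate 2, and was -0.068 without the b samples. TO-d against WT-d ran from -0.138 to 0.277 there, and was -0.046 with the Feature Extraction signals, -0.022 with the series table and -0.071 without the b samples. For Neat1 the uncalled OT difference turned without OT-d replicate 1 (-0.015 to 0.223 with single samples left out), and the response of TO against WT turned with loess alone (0.119). Loess alone also called the Neat1 response of OT against WT (log2 0.60) and lost that of TO against OT (log2 -0.48). Of 69 other listed results, 6 lost their call somewhere and 0 turned. The cause was not tested.

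Within-slide values, from few samples and with no test, moved by more than the replicate SD for Sfpq in WT (-3.41 on slide 1, -2.20 on slide 3) and OT (-0.87 on slide 2), Nono in WT (-0.47 on slide 3) and OT (-0.39 on slide 2), and Pspc1 in WT (-1.58 on slide 3) and TO (-0.84 on slide 1, -0.52 on slide 3). The replicate number as a block, which also holds the dye, changed no call among 28 results for the main probes and the paraspeckle list (with this replicate block Pspc1 was log2 -1.90 in WT and -0.68 in TO). It lost Neat1 in WT (adjusted p = 0.0655) and the second Nono probe in OT against WT (adjusted p = 0.1), and left 15895 probes called in WT against 15930. The dim second Nono probe limits what can be read from it, and Sfpq rests on 1 of 2 disagreeing probes.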
